A study of Mus musculus with 16 samples.

Results

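The glycolytic enzyme genes Hk2, Gpi1, Aldoa, Tpi1, Gapdh, Pgk1, Pgam1, Eno1, Pkm and Ldha were followed through RNA immunoprecipitation of the transcription factor Sox2 in male mouse embryonic stem cells (mESC). These 10 genes were taken by symbol from the 53379 genes of the deposited count table, where they hold 11 rows because the symbol Aldoa is carried by a second, upstream row. The cells, a pluripotent line grown with LIF, PD0325901 and CHIR99021, were crosslinked with formaldehyde (fRIP) or with UV light (UV-RIP), and RNA was sequenced from the Sox2 IP and from the input. Each crosslinker had 4 culture plates, and each plate gave 1 IP and 1 input library from the same lysate, so that there were 4 fRIP IP, 4 fRIP input, 4 UV-RIP IP and 4 UV-RIP input libraries. UV joins protein to RNA in direct contact, whereas formaldehyde also joins neighbouring molecules. The labels name no transgene or deletion in any group, and no IP with a control antibody was analysed here, so that input is the background for each IP.

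Glycolysis splits glucose into pyruvate in the cytosol and yields ATP and NADH. Its enzymes are encoded by abundant mRNAs that are used as reference RNAs in many tissues, Gapdh above all, and pluripotent stem cells are known for a high rate of glycolysis. The comparison asks how the RNA of these genes behaves in each Sox2 IP and whether Gapdh stands for the others.

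Values are counts of unique molecular identifiers (UMIs), which count each RNA fragment once, over whole gene bodies with introns. The libraries held 12456298 to 21211537 UMIs, and the 10 genes took 0.165% to 0.339% of them. Levels are given as counts per 1000000 UMIs of the library (CPM). The locus Gm26917 alone took 18.4% to 22.3% of the UMIs of the UV-RIP IP and at most 12.3% of the UV-RIP input. It took 5.44% to 12.4% of the fRIP IP and 5.46% to 8.49% of the fRIP input. Which RNA these UMIs come from was not tested. By the chi-square of their counts per degree of freedom, the fRIP IP of plate 5 stood at 57.8 to 91.9 from the other IP libraries and the fRIP input of plate 4 at 58.1 to 74.4 from the other inputs, and all other pairs of replicates were closer. Of 10 embryonic stem cell markers, 9 were above 0, with a summed level of 3844 to 4545 CPM in the fRIP input, 2260 to 2427 in the UV-RIP input, 3575 to 3883 in the fRIP IP and 2054 to 2174 in the UV-RIP IP, and 20 markers of other cell types summed to 12.8 to 22.8 CPM. The row of Sox2 itself was at 0 UMIs in all 16 libraries, and it lies wholly within Sox2ot on the same strand.

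Most of the coding sequence of these genes also occurs in other genes, chiefly processed pseudogenes, which are copies of spliced mRNA inserted elsewhere in the genome. The study read pairs of 34 bases and discarded reads that did not map to a unique place. Of the 34-base windows in the coding sequence, 966 of 966 for Gapdh (transcript Gapdh-203) were also present in annotated transcripts of other genes, as were 1218 of 1218 for Pgk1 and 729 of 729 for Pgam1. The windows of Gapdh were spread over 307 other genes, 297 of them pseudogenes. The share was 88.6% for Eno1, 72.9% for Pkm, 57.5% for Ldha, 54.5% for Gpi1, 42.3% for Aldoa, 27.9% for Tpi1 and 0% for Hk2. Outside the coding sequence of the same transcripts it was 50.7% for Eno1, 36.9% for Gapdh and 6.56% for Gpi1, and at most 1.07% for the other enzymes.

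The following stretches show how close the copies are for Gapdh and Eno1, among the enzymes with the most shared sequence. The capital letter marks the base at which a gene and 1 of the copies shown differ.
Gapdh: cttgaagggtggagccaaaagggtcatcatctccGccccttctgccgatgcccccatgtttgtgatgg
Gm7336: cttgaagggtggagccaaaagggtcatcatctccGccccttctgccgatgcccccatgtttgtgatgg
Gm12070: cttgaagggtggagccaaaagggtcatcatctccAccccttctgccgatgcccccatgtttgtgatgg
Eno1: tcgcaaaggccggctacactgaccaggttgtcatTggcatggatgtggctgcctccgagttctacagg
Gm4735: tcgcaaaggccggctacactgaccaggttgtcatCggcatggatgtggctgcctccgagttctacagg

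The Gapdh stretch is coding bases 327 to 394 in exon 4, at chr6:125162968-125163035 on the minus strand of GRCm38. The matching stretch of Gm7336 lies at chr7:51747023-51747090 on the plus strand and that of Gm12070 at chr11:26786959-26787026 on the plus strand. The Eno1 stretch is coding bases 692 to 759 in exon 8, at chr4:150246594-150246661 on the plus strand, and that of Gm4735 lies at chr2:80837832-80837899 on the plus strand. Gm7336 had 0 mismatches over the 999 coding bases of Gapdh, Gm5537 had 0 over the 1251 of Pgk1, Pgam1-ps2 had 0 over the 762 of Pgam1, and Gm4735 had 5 over the 1302 of Eno1. Pgam1-ps2 held 42 UMIs in all 16 libraries together, and the other 9 pseudogenes of the count table that carry the name of a member held 0 to 33. The levels of Gapdh, Pgk1, Pgam1 and Eno1 are therefore uncertain, and how many of their reads were discarded was not tested.

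**Figure D1:**
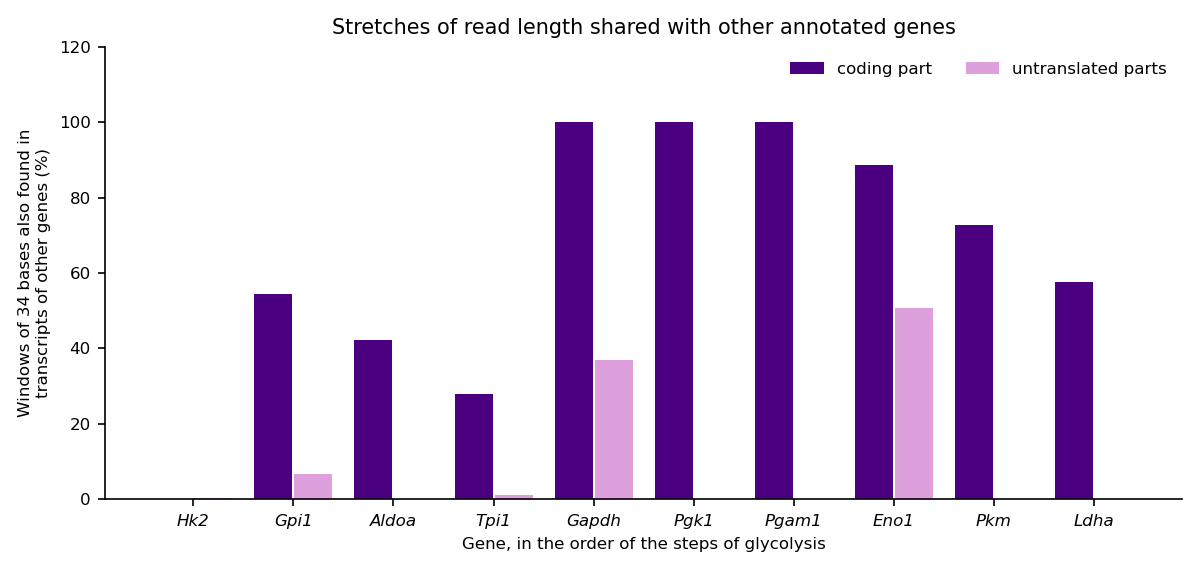
Share of the 34-base windows of each gene's main transcript (y axis, percent) that also occurs in annotated transcripts of other genes, for the coding part (dark) and the untranslated parts (light), with the genes on the x axis in the order of the pathway. Gapdh, Pgk1 and Pgam1 reach 100% in the coding part and Hk2 is at 0%.

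Of the first enzymes, Hk2 (hexokinase, which traps glucose as glucose 6-phosphate; ENSMUSG00000000628.10, chr6:82725025-82774454, minus strand) and Gpi1 (its isomerase; ENSMUSG00000036427.5, chr7:34201330-34230336, minus strand) have long gene bodies of 49.4 and 29.0 kb. Aldoa (aldolase, which cuts fructose 1,6-bisphosphate; ENSMUSG00000030695.16, chr7:126795234-126800751, minus strand) and Tpi1 (which interconverts the triose phosphates; ENSMUSG00000023456.14) span 5.52 and 3.71 kb. Gapdh (ENSMUSG00000057666.18, chr6:125161715-125166467, minus strand), whose enzyme oxidises glyceraldehyde 3-phosphate, spans 4.75 kb, of which 87.0% is exonic. Pgk1 (the first ATP-yielding kinase; ENSMUSG00000062070.12, chrX:106187100-106203699, plus strand) spans 16.6 kb and Pgam1 (phosphoglycerate mutase; ENSMUSG00000011752.6) 6.79 kb. Eno1 (enolase; ENSMUSG00000063524.13, chr4:150236721-150248879, plus strand), Pkm (pyruvate kinase; ENSMUSG00000032294.17, chr9:59656368-59679375, plus strand) and Ldha (which turns pyruvate into lactate; ENSMUSG00000063229.15, chr7:46841475-46855627, plus strand) span 12.2, 23.0 and 14.2 kb. Tpi1 and Pgam1 matched the annotation by identifier but not by version, and no coordinates are given for them.

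Input levels differed between the crosslinkers. In the fRIP input 9 of the 10 genes were higher than in the UV-RIP input and 0 were lower (edgeR's quasi-likelihood test, Benjamini-Hochberg adjusted p below 0.05), where 20.2% of all genes tested were higher and 17% lower. The difference exceeded 1.5-fold for 7 of them, against 10.6% of all genes. The median log2 difference of the 10 genes was 0.80, and that of all genes was 0.03. Among genes that averaged at least 1000 UMIs the median was 0.78 for the 143 with gene bodies under 6 kb, 0.41 for the 473 of 6 to 20 kb and -0.01 for the 2943 over 20 kb. For 8 of the 10 genes every fRIP input lay above every UV-RIP input, which held for 19% of all genes.

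Gapdh had 259, 328, 333 and 299 CPM in the fRIP inputs of plates 3, 4, 5 and 6, and 170, 148, 150 and 151 CPM in the UV-RIP inputs of its own plates 3 to 6. The groups did not overlap, and the fRIP level was 1.97 times the UV-RIP level (log2 difference 0.98 ± 0.083, SE; edgeR adjusted p = 2.8e-07). Aldoa was 1.92 times higher, at 491 ± 62.5 against 255 ± 26.5 CPM (SD, n = 4 each), and Tpi1 1.96 times, at 95.9 ± 19.9 against 48.9 ± 7.67 CPM. Pkm, with the most UMIs of the 10 genes, had 1009 ± 114 CPM in the fRIP input and 587 ± 29.7 in the UV-RIP input. Hk2, Eno1 and Ldha were 1.68 to 1.78 times higher. Gpi1 was higher by 1.19-fold (adjusted p = 0.0044), a call lost with totals that omit Gm26917 and Gm42418, at 0.15 on the log2 scale (adjusted p = 0.069), and Pgk1 by 1.26-fold (adjusted p = 0.048), the latter lost in 10 of the 16 alternatives, for instance with 0.15 on the log2 scale without plate 4 of fRIP (adjusted p = 0.11). Pgam1 differed by 0.10 ± 0.083 on the log2 scale (adjusted p = 0.40). These levels are shares of a library's total UMIs, not amounts of RNA. In bulk RNA, fewer cells that express a gene and less of its RNA per cell cannot be told apart. Crosslinker and culture plate differ together.

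The order of the enzymes can be read only per length, and it depends on which length is used, since the counts cover introns. Per kilobase of exon, Pkm led in the fRIP input with 202 ± 22.9 CPM (SD, n = 4), followed by Aldoa with 169 ± 21.5, and their ranges overlapped. Gapdh, at 73.8 ± 8.27 CPM per kb of exon, was the next, and its range overlapped that of Ldha at 54.7 ± 9.63. Gpi1, Hk2, Eno1 and Tpi1 followed at 54.0, 53.2, 40.6 and 34.8, each overlapping its neighbour. Pgk1, at 17.3 ± 4.10, and Pgam1, at 14.5 ± 0.49, were the lowest and overlapped. Their coding sequence is wholly shared with copies, as is that of Gapdh. In the UV-RIP input Pkm and Aldoa led again, at 117 ± 5.94 and 87.7 ± 9.12, without overlap, and Gapdh came after Gpi1, at 37.4 ± 2.46. Per kilobase of the gene body that was counted, the fRIP input had Aldoa first at 89.0 ± 11.3 CPM (SD, n = 4), then Gapdh at 64.1 ± 7.19 and Pkm at 43.8 ± 4.97, without overlap between these neighbours, and Pgk1 last at 2.34 ± 0.555. Gapdh supplied 7.77% to 10.5% of the UMIs of the 10 genes and Pkm 32.1% to 36.4%, depending on the library.

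**Figure D2:**
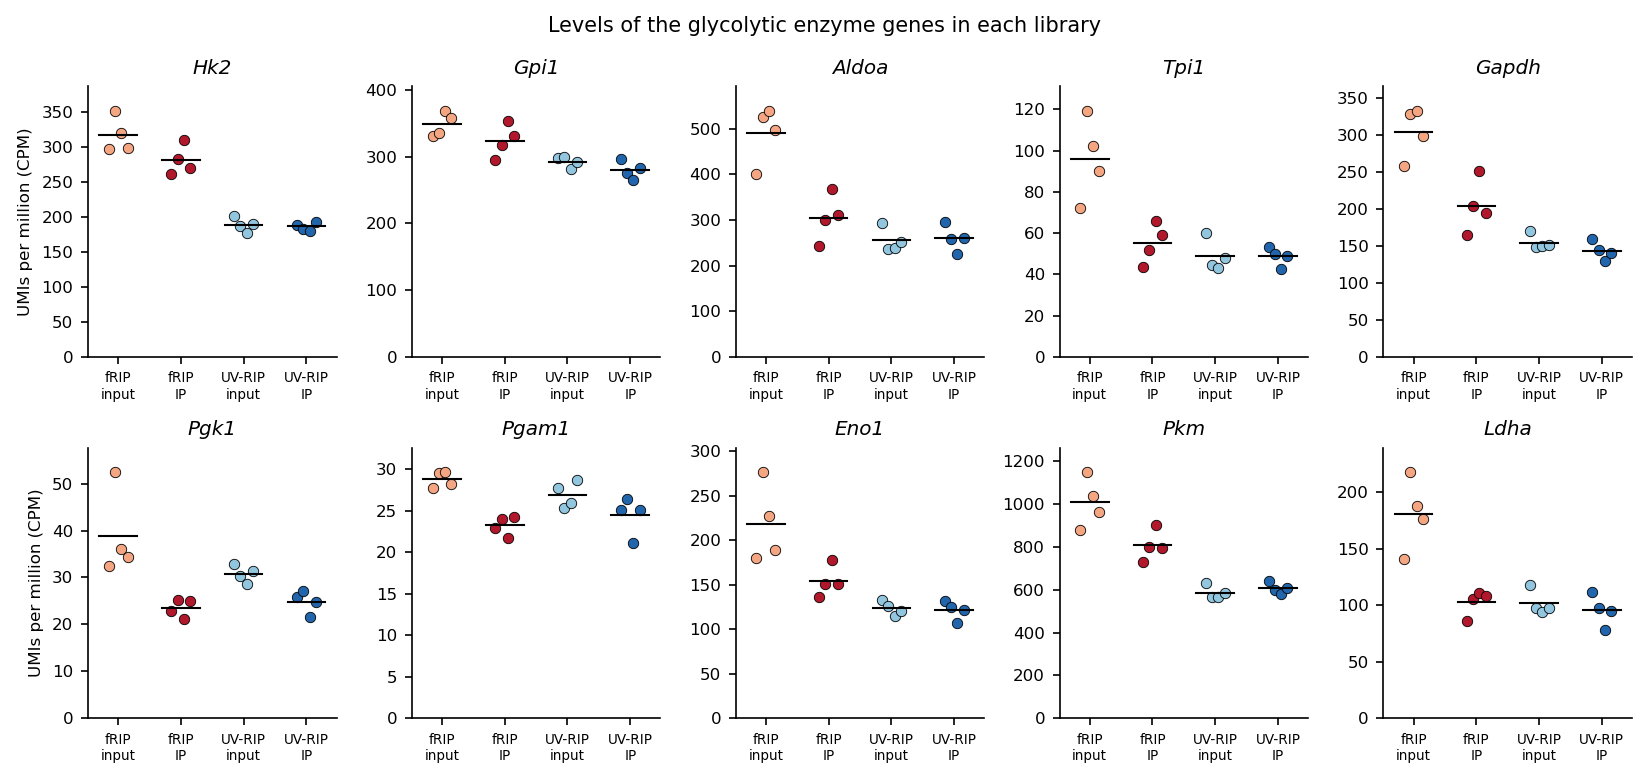
CPM (y axis of each panel, from 0) of the 10 genes in the 4 groups of libraries (x axis). Points are the 4 libraries of a group and the line is their mean; the fRIP inputs of Gapdh, at 259 to 333 CPM, lie above all its other libraries.

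In fRIP most of the enzyme genes had lower levels in the Sox2 IP than in the input, over gene bodies with introns. Of the 10 genes, 8 fell and 0 rose (edgeR's quasi-likelihood test with the plate as a block, adjusted p below 0.05), where 21.9% of all genes tested fell and 17.6% rose. Gapdh, Aldoa, Tpi1, Pgk1 and Ldha fell by more than 1.5-fold, against 10.7% of all genes. Gapdh was just past that fold, with 0.665 times its input, and fell short of it with TMM factors (log2 fold change -0.54), without plate 3, 4 or 6 (-0.58 to -0.56) and in 4 further alternatives, as did Pgk1 without plate 4 (-0.58). The IP libraries all lay below all the inputs for 7 of the 10 genes, against 19.2% of all genes. The median log2 fold change was -0.54 over the 10 genes and -0.03 over all genes.

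Of the enzymes that prepare glucose for splitting, Hk2 and Gpi1 were closest to their input. Hk2 had 262, 283, 311 and 271 CPM in the IP of plates 3 to 6 and 297, 352, 320 and 299 in the inputs, which overlap, and its log2 fold change was -0.17 ± 0.074 (SE; adjusted p = 0.071). Gpi1 had a log2 fold change of -0.11 ± 0.071 (adjusted p = 0.26). Without plate 4 both passed the test, Hk2 at -0.12 (adjusted p = 0.027) and Gpi1 at -0.12 (adjusted p = 0.036), and without plate 5 Hk2 passed at -0.21 (adjusted p = 0.047). Aldoa had 243, 300, 368 and 310 CPM in the IP against 401, 526, 540 and 497 in the input. All its IP libraries lay below all its inputs, by 38.0% in the fit (log2 fold change -0.69 ± 0.073, adjusted p = 5.4e-08). Tpi1 fell by 42.1%, from 95.9 ± 19.9 to 55.2 ± 9.64 CPM (SD, n = 4 each; adjusted p = 2.1e-07).

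Of the enzymes that draw energy from the triose phosphates, Gapdh had 165, 204, 251 and 195 CPM in the IP of plates 3 to 6 and 259, 328, 333 and 299 CPM in the input. The highest IP library was below the lowest input. Its IP level was 33.5% lower (log2 fold change -0.59 ± 0.075, adjusted p = 7.6e-07). Pgk1 had 22.9, 25.1, 21.2 and 24.9 CPM in the IP and 32.4, 52.4, 36.0 and 34.4 in the input, a fall of 38.6% (adjusted p = 2.6e-06) in which the input of plate 4 was the highest. Pgam1 fell by 19.3%, from 28.8 ± 0.976 to 23.2 ± 1.15 CPM (SD, n = 4 each; adjusted p = 0.0059), and without plate 5 it missed the threshold (adjusted p = 0.054). Eno1 fell by 28.8% (adjusted p = 5.5e-05), and plate 4 showed a log2 ratio of -0.88 where the other plates showed -0.40 to -0.33. Pkm had 730, 802, 904 and 794 CPM in the IP and 880, 1149, 1040 and 964 in the input, which overlap, and fell by 19.8% (adjusted p = 0.0010).

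Ldha, which regenerates NAD for the Gapdh step, had a log2 fold change of -0.80 ± 0.079 (adjusted p = 1.8e-08), beside -0.79 ± 0.092 for Tpi1. Its IP libraries had 86.3, 106, 111 and 108 CPM and its inputs 141, 218, 188 and 176, without overlap. Plate 4 had the lowest IP to input ratio for 8 of the 10 genes. Without plate 4 the median log2 fold change of the 10 genes was -0.46, and 10 of them passed the test; without plate 5 it was -0.59, and 8 passed.

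**Figure D3:**
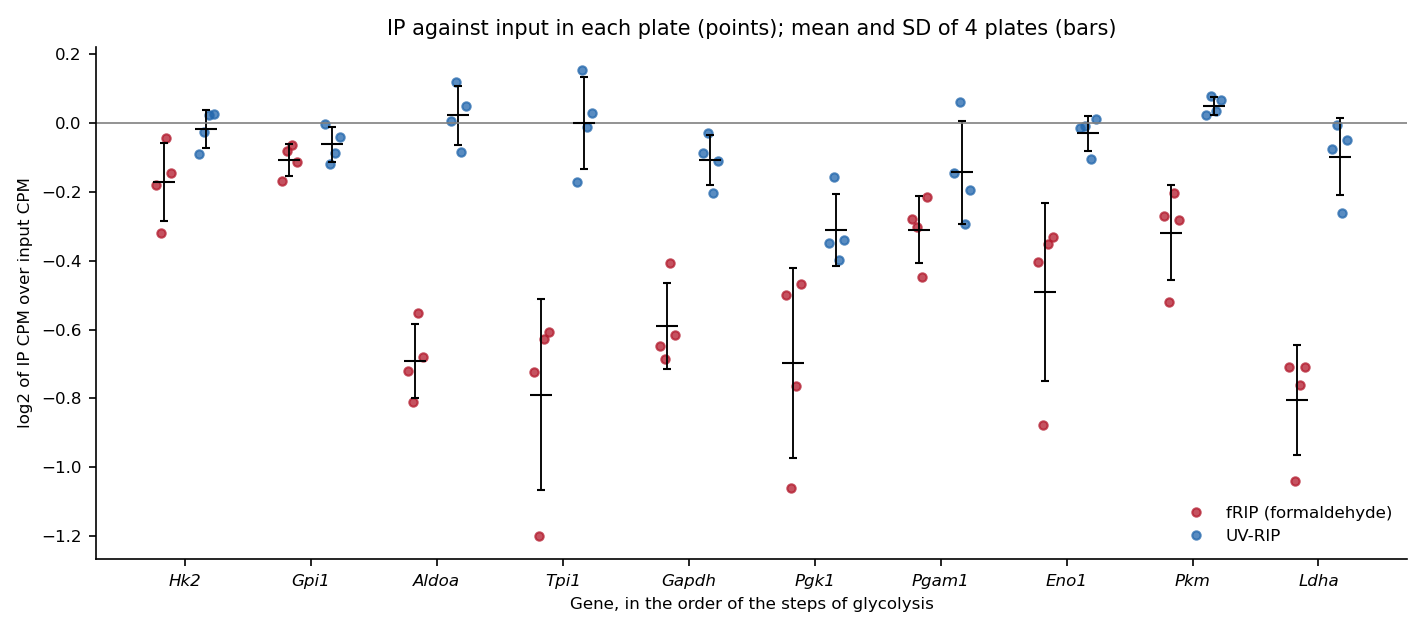
log2 of the IP level over the input level of the same plate (y axis) for the 10 genes (x axis, in pathway order), in fRIP (red) and UV-RIP (blue). Points are the 4 plates and bars the mean and SD; every red point lies below 0, whereas the blue points lie between -0.40 and 0.15.

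In UV-RIP the IP held the RNA of these genes at close to the input level. Of the 10 genes, 2 fell and 0 rose, whereas 29% of all genes tested fell and 6.6% rose at the same threshold. None of them passed 1.5-fold, against 5.53% of all genes. The median log2 fold change was -0.05, and that of all genes was -0.17. The direction of these small differences depends on the scaling. With edgeR's TMM factors the median of all genes moved from -0.17 to 0.01, the median of the 10 genes to 0.14, and 6 of the 10 rose and 0 fell, where 3724 of all 22936 genes tested rose and 3400 fell. With totals that omit Gm26917 and Gm42418, 6 rose and 1 fell, where 3327 of all genes rose and 3866 fell, and the median of the 10 was 0.11. The median of the 10 genes lay above that of all genes under each of these scalings, and the calls for single genes below are by total UMIs.

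Pgk1 had the largest change in UV-RIP, with 25.8, 27.1, 21.7 and 24.9 CPM in the IP of plates 3 to 6 and 32.8, 30.3, 28.5 and 31.5 in the input. It was the only gene of the 10 whose IP and input libraries did not overlap, which held for 25% of all genes, and it fell by 19.3% (log2 fold change -0.31 ± 0.061, adjusted p = 2.1e-06). With TMM factors its change was -0.13 (adjusted p = 0.098). Gapdh had 160, 145, 130 and 140 CPM in the IP and 170, 148, 150 and 151 CPM in the input. It was lower on 4 of 4 plates, by 7.13% in the fit (adjusted p = 0.029), and the groups overlapped. The call for Gapdh was lost in 10 of 13 alternatives, among them without plate 3, 5 or 6 (adjusted p = 0.078 to 0.25) and without the block (adjusted p = 0.15), and with TMM factors the value was 0.07 (adjusted p = 0.13).

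Pkm was above its input on 4 of 4 plates in UV-RIP, at 608 ± 25.2 against 587 ± 29.7 CPM (SD, n = 4 each), with a log2 fold change of 0.05 ± 0.037 that did not pass the test (adjusted p = 0.33). With TMM factors Pkm rose by 0.23 (adjusted p = 2.8e-12) and Aldoa by 0.20 (adjusted p = 3.5e-08). Aldoa, at 260 ± 28.8 against 255 ± 26.5 CPM, and Tpi1, at 48.7 ± 4.46 against 48.9 ± 7.67, had IP and input levels by total UMIs within the spread of the plates. Ldha had a log2 fold change of -0.10 (adjusted p = 0.076) and Pgam1 of -0.14 (adjusted p = 0.058). Without plate 4 both passed, at -0.12 (adjusted p = 0.030) and -0.21 (adjusted p = 0.010). Without plate 5 they had -0.04 (adjusted p = 0.61) and -0.10 (adjusted p = 0.36) in the same edgeR test. Eno1, Hk2 and Gpi1 lay between -0.06 and -0.02.

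The difference between the crosslinkers was tested as an interaction over all 16 libraries. The IP to input ratio was lower in fRIP than in UV-RIP for 7 of the 10 genes and higher for 0, where 8.07% of all genes tested were lower and 18.6% higher, and for 3 of them it was lower by more than 1.5-fold, against 2.69% of all genes. The median difference was -0.43 on the log2 scale, and 0.15 over all genes. With TMM factors it was -0.55, with 9 of the 10 genes lower, and 0.03 over all genes. Tpi1 differed by -0.79 ± 0.113 (SE; adjusted p = 7.9e-06), Aldoa by -0.71 ± 0.080 (adjusted p = 3.2e-07) and Ldha by -0.71 ± 0.090 (adjusted p = 1.7e-06). Gapdh differed by -0.48 ± 0.082 (adjusted p = 6.6e-05), Eno1 by -0.46, Pkm by -0.37 and Pgk1 by -0.40 (adjusted p = 0.014). The call for Pgk1 was lost without plate 4 of UV-RIP (adjusted p = 0.065) and without the block (adjusted p = 0.076). Hk2 differed by -0.15 ± 0.079 (adjusted p = 0.17), Pgam1 by -0.17 ± 0.107 (adjusted p = 0.29) and Gpi1 by -0.05 ± 0.074 (adjusted p = 0.74). With TMM factors Hk2 and Pgam1 passed, at -0.27 (adjusted p = 0.0089) and -0.28 (adjusted p = 0.047), and Gpi1 had -0.16 (adjusted p = 0.075), while DESeq2 with median-of-ratios gave Gpi1 -0.19 (adjusted p = 0.023). This comparison uses the same inputs as the comparison of the input levels. For Gapdh the fRIP IP, at 204 ± 35.7 CPM (SD, n = 4), was above the UV-RIP IP, at 144 ± 12.4.

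Gapdh was set against the other enzymes plate by plate, as its log2 IP to input ratio minus the median of the other 9. In fRIP this was -0.25, 0.13, 0.04 and -0.28 on plates 3, 4, 5 and 6, a mean of -0.09 ± 0.20 (SD, n = 4), below 0 on 2 of 4 plates. Gapdh ranked between 3 and 6 of the 10 genes, counted from the lowest. In UV-RIP it was -0.01, -0.02, -0.12 and -0.12, a mean of -0.07 ± 0.060, below 0 on 4 of 4 plates, and Gapdh ranked between 3 and 5. The offset in fRIP was smaller than its spread over plates, and that in UV-RIP was about as large as its spread. Against the mean of the other 9 the offsets were -0.10 and -0.04, and in UV-RIP 3 of 4 plates were below 0. In the inputs the log2 CPM of Gapdh exceeded the median of the other 9 by 0.25 to 0.66 in fRIP and by 0.23 to 0.38 in UV-RIP.

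Among abundant genes the IP to input ratio of fRIP moved with the length of the gene body, which for a long gene holds mostly intron. Of the 3559 genes that averaged at least 1000 UMIs per library, the 143 under 6 kb had a median log2 fold change of -0.90, the 473 of 6 to 20 kb -0.41 and the 2943 over 20 kb 0.09 (bins chosen after the values were seen). Of the 10 enzyme genes 7 reached that abundance. Gapdh and Aldoa, at -0.59 and -0.69, are in the first bin and lay above its median. Eno1 and Ldha, at -0.49 and -0.80, are in the second and lay below its median. Pkm, Gpi1 and Hk2, at -0.32, -0.11 and -0.17, are in the third and lay below its median. Tpi1, Pgk1 and Pgam1 averaged fewer UMIs and are in none of the bins. In UV-RIP the medians of the bins were -0.35, -0.16 and -0.14, and Gapdh and Aldoa, at -0.11 and 0.02, lay above that of the shortest genes. Over the 10 genes the Pearson correlation of the log2 fold change with log10 gene body length was 0.65 in fRIP and 0.01 in UV-RIP, over genes that share their libraries. Of all 3559 genes it was 0.62 and 0.25. With the share of coding windows held in common with other genes it was -0.13 in fRIP and -0.57 in UV-RIP over the 10 genes, and with the GC percent of the longest transcript 0.07 and 0.75. With a trend on length over all genes removed, 9 of the 10 genes fell in fRIP, with a median of -0.47, where 5616 of all 22936 genes fell and 2867 rose, with a median of -0.10. In that fit Hk2 and Gpi1 were among the 9 (adjusted p = 0.00065 and 0.044) but not Pgam1 (adjusted p = 0.055). The trend was taken over all genes tested, and Gapdh moved only from -0.59 to -0.48. Whether it takes out the trend with length among the abundant genes was not tested. The part of intron and of shared copies in these differences was not tested.

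**Figure D4:**
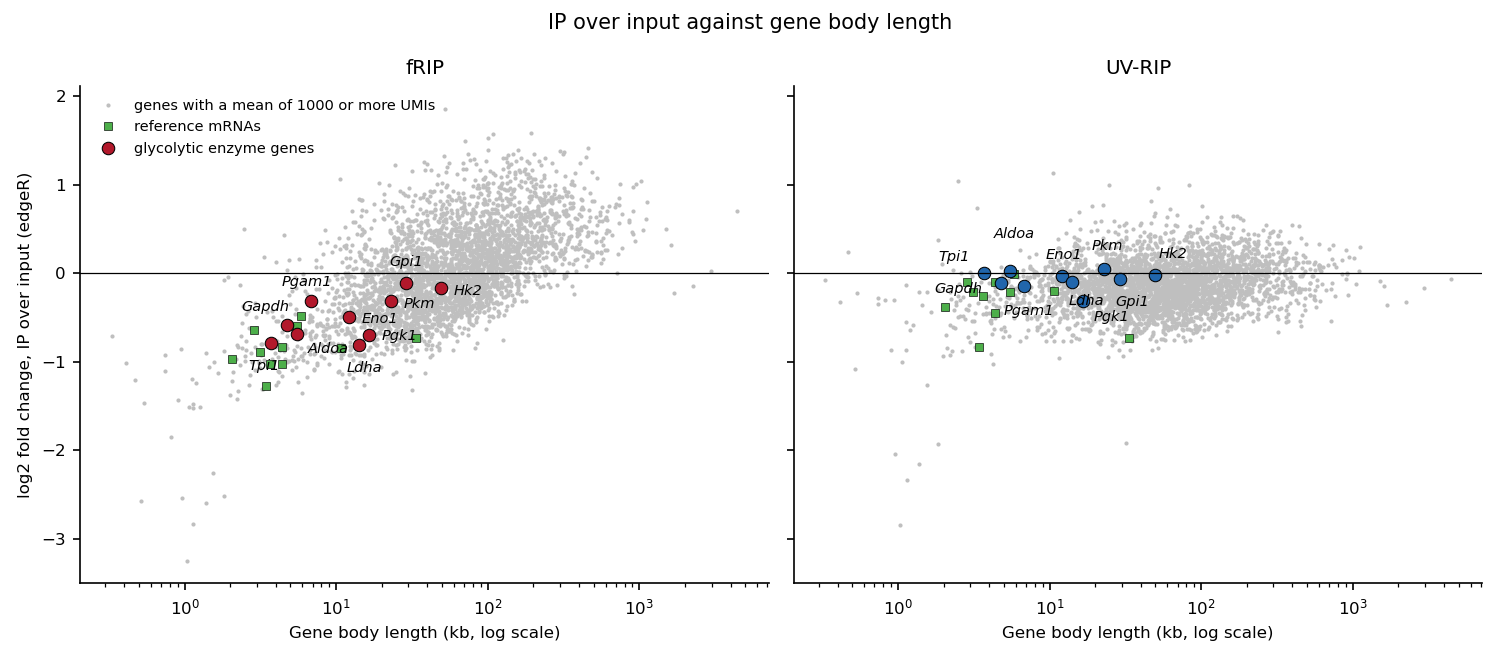
log2 fold change of IP over input (y axis, edgeR) against gene body length (x axis, kb, log scale) in fRIP (left) and UV-RIP (right). Grey points are the 3559 genes that averaged at least 1000 UMIs, squares the 11 reference mRNAs and large circles the 10 enzyme genes, which range from -0.80 to -0.11 on the left and from -0.31 to 0.05 on the right.

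Around the pathway, 73 further genes in 7 lists were looked at, of which 68 were tested. In fRIP 28 fell and 6 rose, where 21.9% of all genes tested fell and 17.6% rose. In UV-RIP 19 fell and 3 rose, where 29% of all genes fell and 6.6% rose. The phosphofructokinase genes, whose enzyme commits sugar to glycolysis, did not move together. Pfkp rose in fRIP by 0.40 on the log2 scale (adjusted p = 8.1e-05), Pfkm fell by 0.26 (adjusted p = 0.019), and Pfkl had a value of 0.02 (adjusted p = 0.89). Of 19 other isozymes 17 were tested, and 3 fell and 2 rose in fRIP. Of the regulators and side steps 2 of 10 fell and 2 rose in fRIP. Both lists stood near the shares of all genes. Pfkfb4, which sets the level of fructose 2,6-bisphosphate, rose by 0.71 and Pgp, a phosphoglycolate phosphatase, fell by 0.68.

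Of 7 transporters tested, 3 fell in fRIP and 0 rose, where 21.9% of all genes fell and 17.6% rose. Slc16a1, the lactate carrier MCT1, had a log2 fold change of -1.05 ± 0.084 (SE; adjusted p = 9.2e-10), and Slc2a3, the glucose carrier GLUT3, of -0.70 ± 0.079 (adjusted p = 1.3e-07). In UV-RIP, by total UMIs, they fell by 0.33 and 0.14, and the shift with TMM factors given above applies to all values of UV-RIP. Of 13 genes for the entry of pyruvate into mitochondria, 9 fell in fRIP and 0 rose. Dld, Pdhb and Pdha1, subunits of pyruvate dehydrogenase, had log2 fold changes of -1.22, -0.75 and -0.71, and in UV-RIP of -0.39, -0.30 and -0.31. In the pentose phosphate pathway 5 of 8 fell in fRIP, among them Taldo1, transaldolase, by 0.78. In gluconeogenesis 1 of 5 tested fell, G6pc3 by 0.83, and 1 rose, Pcx, pyruvate carboxylase, by 0.28, near the shares of all genes. Of 8 transcriptional regulators of glycolysis 5 fell, among them Myc by 0.74, and Egln1, an oxygen sensor of the HIF pathway, rose by 0.86.

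The reference mRNAs outside glycolysis, among them those of the cytoskeleton, translation and protein folding, also fell in fRIP. All 11 were lower in the IP, where 21.9% of all genes tested were. The median of the 11 was -0.84, beside -0.54 for the 10 enzyme genes. Most of the 11 have gene bodies under 6 kb, and abundant genes of that length had a median of -0.90. Actb, cytoplasmic actin, had a log2 fold change of -1.03, Ppia, cyclophilin A, of -1.03, and Eef1a1, an elongation factor, of -0.84. In UV-RIP 9 of 11 fell by total UMIs, against 29% of all genes. Of these, 2 fell by more than 1.5-fold, against 5.53% of all genes. Actb had -0.26, Ppia -0.45 and Eef1a1 -0.20. In the fRIP input 10 of the 11 were higher than in the UV-RIP input, against 20.2% of all genes, with a median of 1.01. The difference between the lists was not tested.

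**Figure D5:**
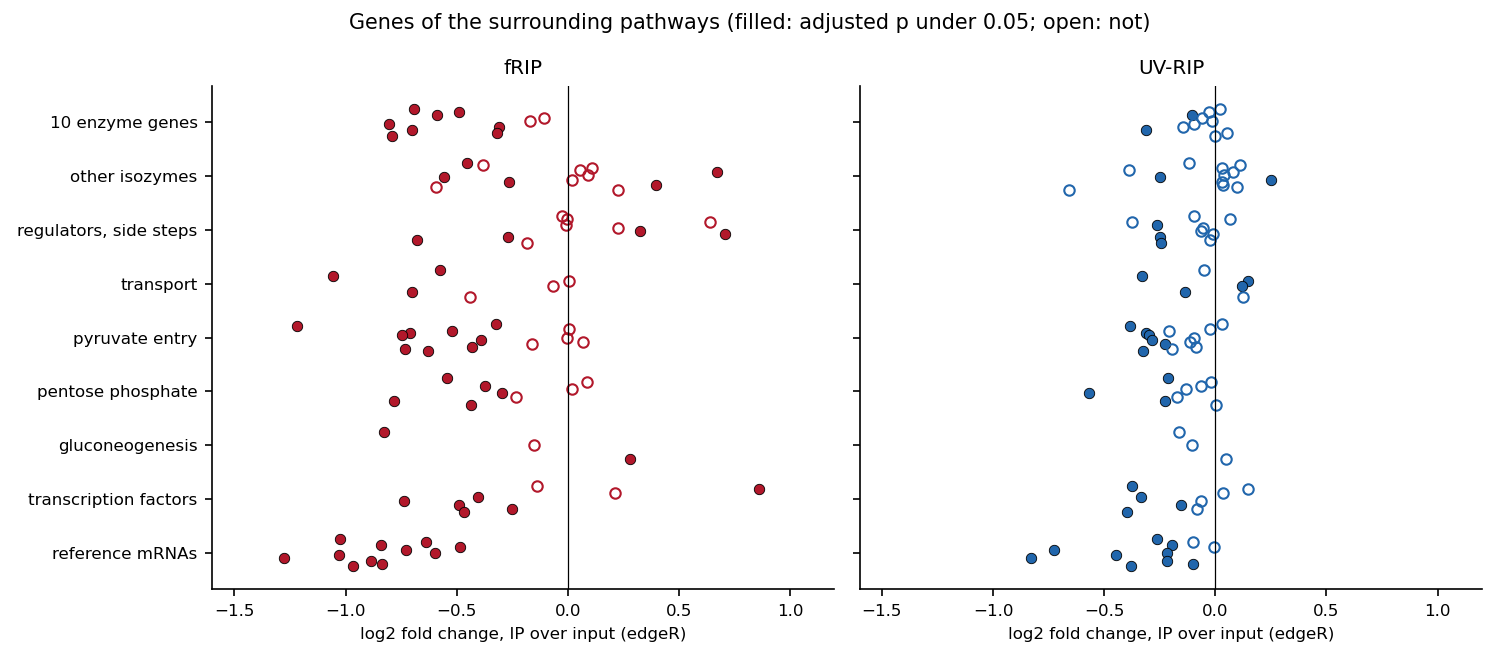
log2 fold change of IP over input (x axis, edgeR) for the genes of each list (rows of points on the y axis) in fRIP (left) and UV-RIP (right), for genes that averaged at least 10 UMIs. Filled points passed the test; all 11 reference mRNAs and 8 of the 10 enzyme genes are filled and below 0 in fRIP.

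Among 3552 other genes of that abundance, the closest to Gapdh in the log2 IP to input ratios of the 8 plates were Impdh2, which makes guanine nucleotides, at a Euclidean distance of 0.176, Kars, lysyl-tRNA synthetase, at 0.189, Ssrp1, a histone chaperone subunit, at 0.203, Actg1, an actin, at 0.204 and Phb2, a prohibitin, at 0.206. The nearest enzyme of the 10 was Aldoa at 0.340, and Gpi1 was the farthest at 0.998. The smallest of 3552 distances and the smallest of 9 cannot be compared, since the larger search reaches lower by selection alone. Impdh2 stood at -0.59 in fRIP and at -0.07 in UV-RIP on the log2 scale, beside -0.59 and -0.11 for Gapdh.

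The second row with the symbol Aldoa (ENSMUSG00000114515.2, chr7:126800790-126809108, minus strand, 8319 bases) lies upstream of Aldoa and wholly within Fam57b on the opposite strand. It held 996 UMIs in all libraries together, whereas Sox2, wholly within a gene of its own strand, held 0. It rose in the UV-RIP IP with a log2 fold change of 0.32 ± 0.123 (adjusted p = 0.031), with 0.21, 0.66, -0.17 and 0.56 on plates 3 to 6, so that plate 5 went the other way and the groups overlapped. It had 0.24 ± 0.161 in fRIP (adjusted p = 0.26), and it was lower in the fRIP input than in the UV-RIP input by 0.65 on the log2 scale. Fam57b also covers 55.9% of the body of Aldoa itself, and Fam57b held 903 UMIs where Aldoa held 81246.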

How the data were processed

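RNA from Sox2 IP and input of male mESC was sequenced after formaldehyde or UV crosslinking. The authors mapped reads with STAR to mm10 (per the submitters' processing notes), discarded reads without a unique position and counted UMIs on gene bodies of GENCODE vM16 with featureCounts; versions and the strand setting are not given in the sources used here. The authors deposited these values as raw counts, with the gene length as the span of the gene body. All 16 columns were matched to a library by title.

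In R 4.3.3, edgeR 4.0.16 fitted the counts with the total UMIs as library size. IP was compared with input per crosslinker with the replicate number as a block. The 22936 genes that reached 3 UMIs in any library were tested, with Benjamini-Hochberg adjustment over all of them. Fold calls used 1.5. The interaction had the plate as a block, and the inputs were compared without a block. DESeq2 1.42.0, without its cutoff on outlying counts, served for alternatives. On simulated data with 200 genes changed by 2-fold in each comparison, 100% were recovered, with 6 to 8 false calls among 22936 genes. The changed genes averaged at least 100 UMIs, and the simulated counts had no plate effect. Their spread was set alike for all genes, and for the inputs it was smaller than that fitted to the data. Changes under 2-fold were not simulated. Tables and figures were made with Python 3.11.15, pandas 2.3.3, numpy 2.4.6 and matplotlib 3.10.9.

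By the study's methods, an IP and its input shared 1 lysate and carry its number. Deviations of same-numbered IP and input libraries from their group means correlated at 0.11 to 0.60 in fRIP and at 0.029 to 0.44 in UV-RIP over genes that averaged at least 100 UMIs. Across the crosslinkers the numbers are only names. Replicates differed beyond sampling noise (lowest chi-square per degree of freedom 1.72), and none was counted as a copy. With 12456298 to 21211537 UMIs per library, each of the 10 genes had 316 or more UMIs per library.

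Coordinates and transcripts are from GENCODE vM21 on GRCm38. Of 53379 identifiers 50604 matched with their version and 2670 by identifier alone. Shared windows were sought in annotated transcripts, not in the genome. The 10 genes, the lists and the tests were chosen with earlier results of these data known. Named from the lists were the genes past 1.5-fold in either crosslinker, at most 3 per list by mean UMIs, and Actb, Ppia and Eef1a1, except 1 gene not reported here; the Pfk genes and Pcx were named after their values were seen. Alternatives were other scalings and tests, count filters, removal of a trend on gene length, fits with and without the block or over all 16 libraries, and each plate left out. Offsets of Gapdh, correlations and distances are descriptions with no test.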

Additional observations from a re-analysis of the deposited data

Results flagged for a closer look

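The following single libraries stood far from the others of their group by Dixon's criterion for 4 values, which chance meets in about 1 of 20 groups. Of 66 groups looked at, 4 met it. Gapdh had 170 CPM in the UV-RIP input of plate 3, where the other 3 inputs had 148 to 151, and Ldha had 118 CPM in the same library, where the others had 94.1 to 98.1. On plate 4 of fRIP the log2 IP to input ratio was -0.88 for Eno1, where the others were -0.40 to -0.33, and -1.04 for Ldha, where the others were -0.76 to -0.71.

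For 7 enzymes the IP to input ratio differed between the crosslinkers by the interaction test (edgeR, adjusted p below 0.05). On the log2 scale, fRIP minus UV-RIP, the difference was -0.79 for Tpi1, -0.71 for Aldoa, -0.71 for Ldha, -0.48 for Gapdh, -0.46 for Eno1, -0.40 for Pgk1 and -0.37 for Pkm.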

How the results depend on the processing

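Of 580 values of single enzymes under the alternatives, 507 had the same direction and call, 22 newly passed it, 24 no longer passed it and 27 changed sign. In fRIP 8 to 10 of the 10 genes were lower and 0 higher under every alternative, in the interaction 6 to 9 were lower and 0 higher, and in the inputs 7 to 9 were higher and 0 lower. With each plate left out these counts were 8 to 10, 6 to 7 and 8 to 9, with medians of -0.59 to -0.46, -0.47 to -0.32 and 0.70 to 0.87.

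The UV-RIP results moved most. In place of 2 lower and 0 higher, TMM factors gave 0 and 6, with a median of 0.14, totals without Gm26917 and Gm42418 gave 1 and 6, with 0.11, and DESeq2 with median-of-ratios gave 0 and 5, with 0.13. DESeq2 with total UMIs, removal of the length trend, the fit over all 16 libraries and the fit without the replicate block each gave 1 lower, and leaving out 1 plate gave 1 to 4, the 4 without plate 4. The filter of 10 or more UMIs in 4 libraries gave 3, with Pgam1 at -0.14 (adjusted p = 0.048). The values that changed sign in UV-RIP were, for TMM, totals without Gm26917 and Gm42418, and DESeq2 with median-of-ratios in this order, Eno1 0.15, 0.13 and 0.14, Hk2 0.16, 0.14 and 0.16, Tpi1 0.18, 0.15 and 0.17, Gapdh 0.075, 0.047 and 0.066, Gpi1 0.12, 0.092 and 0.11, Ldha 0.086, 0.059 and 0.077, and Pgam1 0.036, 0.0090 and 0.029. These 3 scalings give Gm26917 less weight. Tpi1 became 0.011 with the length trend removed. With each plate left out Tpi1 ranged from -0.052 to 0.057, Hk2 from -0.031 to 0.0075 and Aldoa from -0.0091 to 0.058, of which the values without plate 3 for Tpi1 and Hk2 and without plate 4 for Aldoa had the other sign. The cause was not tested for these. In the inputs Pgam1 became -0.0032 with totals without Gm26917 and Gm42418 and -0.027 with the length trend removed.

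Over all genes, TMM moved the split of lower and higher calls in UV-RIP from 6640 and 1514 to 3400 and 3724 and in the interaction from 1852 and 4264 to 2810 and 3062, and totals without Gm26917 and Gm42418 moved that of the inputs from 3890 and 4634 to 5017 and 3602. DESeq2 with median-of-ratios gave, to the nearest 100, splits of 2200 and 2400 in UV-RIP and 2400 and 2100 in the interaction. Without the replicate block the interaction was lower for 6 of the 10 genes and fRIP for 8, and with the replicate block the inputs were higher for 9; the block changed no other call than those of Gapdh in UV-RIP and Pgk1 in the interaction. The same-numbered inputs of the crosslinkers had deviations that correlated at -0.27 to -0.066. The offset of Gapdh from the other 9 was -0.16 to -0.03 in fRIP and -0.09 to -0.05 in UV-RIP with each plate left out. With the length trend over all genes removed it was -0.03 and -0.02, and 3 of 4 UV-RIP plates were below 0. Pgam1 had on average the fewest UMIs of the 10 genes, 316 to 434 per UV-RIP library, and its difference of 9.51% missed the threshold in UV-RIP, where 7.13% passed it for Gapdh.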
